A study of Equus caballus with 21 samples.

Results

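HOX genes of the A, B, C and D clusters were examined in laser-captured horse endometrium. The members were every row of the read count table whose RefSeq symbol is HOXA, HOXB, HOXC or HOXD followed by a number. This gave 32 genes among the 24942 gene IDs counted. The RefSeq gene table used for names lists 39 such symbols, and the other 7 (HOXA4, HOXA13, HOXB4, HOXB8, HOXB9, HOXC8 and HOXD11) matched no row and were not analysed here. Of the 32 members, 18 had at least 1 count in the 21 libraries and 14 had none.

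HOX proteins are homeodomain transcription factors, and their genes lie in order within each cluster. Low-numbered (anterior) genes are used early and toward the head of the embryo, and high-numbered (posterior) genes later and toward the tail, with retinoic acid, Polycomb and trithorax proteins setting the borders. In the female tract the posterior genes of the A cluster pattern the Müllerian duct, and HOXA10 and HOXA11 are known in the uterus of mice and women for their part in implantation and in the response to ovarian steroids.

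Warmblood mares were given hCG (human choriogonadotropin), which acts like luteinizing hormone, to bring on ovulation. Biopsies were taken on day 12 of the estrous cycle (cyclic) or on day 12 of pregnancy after insemination (pregnant). Luminal epithelium (LE), which faces the uterine cavity, glandular epithelium (GE) and stroma (S) were captured separately, with 5 cyclic and 4 pregnant LE libraries, 4 and 4 GE libraries and 2 and 2 S libraries. Letters in the labels name the mares (B, C, J, M and U). The labels hold 5 letters although more mares are stated for the study, mare J gave cyclic LE only, and the stroma came from mares B and M (cyclic) and M and U (pregnant). An unnamed subset of the libraries was amplified further because of low yield.

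Total counts ranged from 136259 to 1467510 per library. Epithelial markers summed to between 575 and 3057 CPM (counts relative to the library size) in LE and to between 881 and 14976 CPM in GE. The 14976 came from cyclic GE of mare M, and the next highest GE sum was 1915 CPM (pregnant, mare C). In each epithelial group, 6 of 6 measured markers had counts. The gland products P19 and SCGB1A1 summed to 14455 CPM or more in GE and to at most 4482 CPM in LE, whereas the gland factor FOXA2 had no count in any group. Stromal fibroblast markers summed to between 4287 and 10891 CPM in S and to at most 5118 CPM in LE. Among the epithelial libraries, the pregnant LE and cyclic GE libraries of mare M stood apart. RN18S, the 18S ribosomal RNA gene, took 0.452% and 0.293% of their counts, and the authors left both out of 1 of their deposited signal tables. The pregnant S library of mare U, with RN18S at 0.819%, was kept in both tables.

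Pooled over the 21 libraries, the HOX counts came mostly from the anterior and central parts of the A and B clusters. All members together held 5561 counts, of which the B cluster took 4301 (77.3%), the A cluster 1139 (20.5%), the D cluster 81 (1.46%) and the C cluster 40 (0.719%). By position, paralogues 4 to 8 (central) took 69.6% of the counts, paralogues 1 to 3 (anterior) 25.9% and paralogues 9 to 13 (posterior) 4.51%. A single gene, HOXB6, held 3384 counts (60.9%) and was the only member with counts in all 21 libraries. The S libraries held 55 of the HOX counts in cyclic and 405 in pregnant S, so the pooled split describes mainly the epithelia. In cyclic S the posterior genes HOXA11 and HOXD9 held 21 and 17 of the 55, each in 1 library. In pregnant S the anterior gene HOXB2 held the most, 98 of 405, also in 1 library. All of these are reads per gene and are not corrected for transcript length, so they do not rank the genes by molecules.

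**Figure D1:**
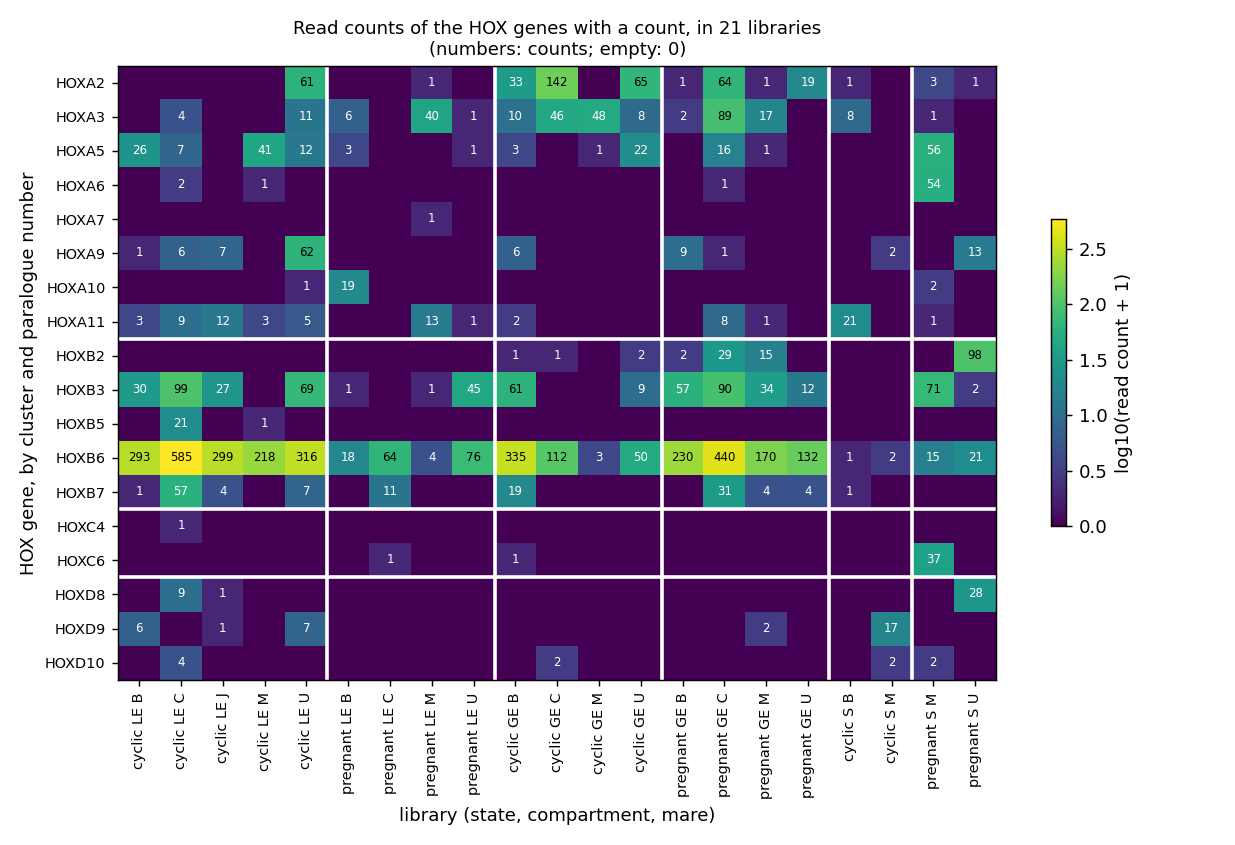
Read counts of the 18 HOX genes with a count (rows, by cluster and paralogue number) in the 21 libraries (columns), with the count printed where it is above 0 and colour on a log10(count + 1) scale. HOXB6 is filled in every column and HOXB3 in 15 of them, while HOXA7 and HOXC4 have 1 count each.

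Members of the A cluster with counts were HOXA2, HOXA3, HOXA5, HOXA6, HOXA7, HOXA9, HOXA10 and HOXA11. The B cluster had counts for HOXB2, HOXB3, HOXB5, HOXB6 and HOXB7, 5 of 7 rows. Counts were sparse in the others, with 2 of 8 rows in the C cluster (HOXC4 and HOXC6) and 3 of 8 in the D cluster (HOXD8, HOXD9 and HOXD10). Members with no count included HOXB1, HOXB13, HOXC5, HOXC9 to HOXC13, HOXD1, HOXD3, HOXD4, HOXD12 and HOXD13. For each of the 14 genes without a count, 3 counts over all libraries allow a level of up to 0.269 CPM, a limit that covers counting error only. HOXB13 and HOXC9 to HOXC13, all of the measured posterior genes of the B and C clusters, were thus below detection at this depth.

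By compartment, 17 members had a count in LE, 13 in GE and 15 in S, and 12 had counts in all of them. HOXB2 had none in LE, which allows up to 0.684 CPM there, and HOXA10 had none in GE, which allows up to 0.541 CPM. The number of members detected per library had a median of 7 (5 to 12) in cyclic LE, 5 (3 to 6) in pregnant LE, 5.5 (3 to 10) in cyclic GE and 7.5 (4 to 10) in pregnant GE. Cyclic S libraries detected 4 and 5 members and pregnant S libraries 6 and 10. With every library thinned to 136259 counts, the smallest total, the medians were 5.44, 3.50, 4.60 and 4.73 in the epithelial groups in that order and 3.85 and 5.69 in cyclic and pregnant S. The states of LE and of GE overlapped after thinning, and those of S, with 2 libraries each, did not. Thinning was on total counts with ribosomal RNA included, so the depth left for other genes still differed. RN18S took from 0.293% of the counts (cyclic GE, mare M) to 66.2% (pregnant S, mare M). Before thinning, the numbers of all genes detected in S did not overlap either, with 4072 and 4863 in cyclic and 5396 and 8116 in pregnant libraries. These numbers of all genes were not thinned, and the 8116 came from the S library with the most counts (pregnant, mare M, 1175127).

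**Figure D2:**
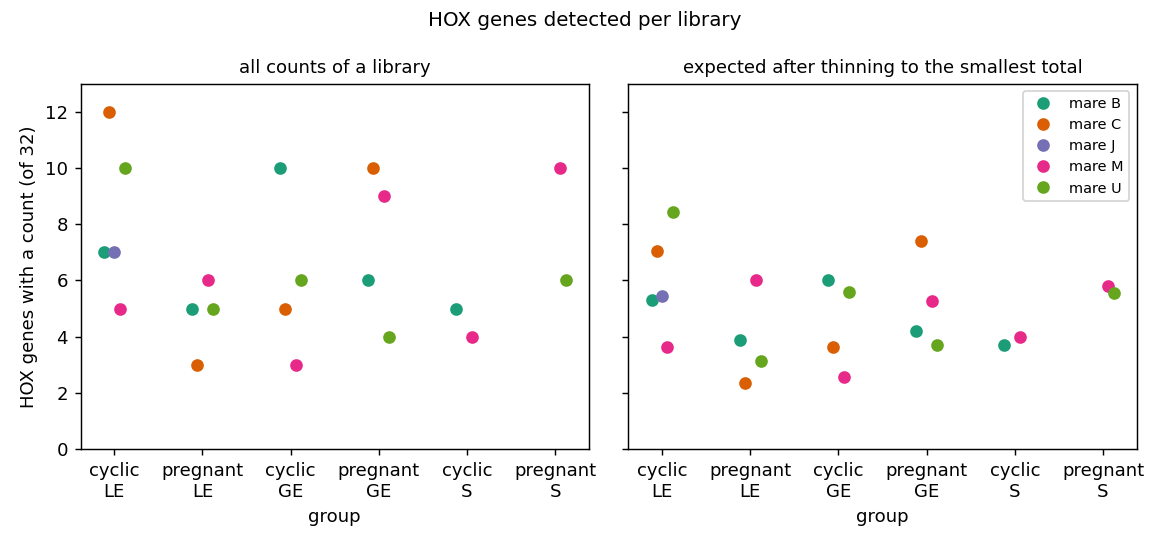
Number of the 32 HOX genes with at least 1 count in each library, by group and mare, from all counts (left) and as the number to be found after thinning each library to 136259 counts (right). Cyclic LE reaches 12 genes before thinning, and its median is 7 before and 5.44 after thinning.

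HOX reads were unevenly spread over libraries. Among the 15 members with at least 20 counts, the library with the most reads of a gene held a median of 51.5% of them, against 31.0% for the 12610 genes with at least 20 counts, and 8 of the 15 had over 50% in 1 library. Those 12610 genes were not matched to the members for number of counts, and the part of low counts in this contrast was not tested. HOXA6 had 54 of its 58 counts in the pregnant S library of mare M, and HOXC6 had 37 of 39 there. In that library HOXA5 had 56 counts, and HOXA5 and HOXA6 overlap in the RefSeq table. Elsewhere their counts parted, with 41 and 1 in cyclic LE of mare M and 26 and 0 in cyclic LE of mare B. HOXD8 had 28 of 38 counts in the pregnant S library of mare U, HOXD9 had 17 of 33 in the cyclic S library of mare M, and HOXB5 had 21 of 22 in the cyclic LE library of mare C. HOXD10 had 10 counts in 4 libraries, and HOXA7 and HOXC4 had 1 count each. RN18S took 66.2% of the counts in the pregnant S library of mare M and 0.819% in that of mare U, and its part in these HOX counts was not tested.

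HOXB6, a central gene of the B cluster, was high in all cyclic LE libraries and lower in all pregnant ones. Its level (CPM of the TMM-scaled library size) in cyclic LE was 619 in mare B, 534 in C, 569 in J, 689 in M and 529 in U. In pregnant LE it was 46.8 in B, 153 in C, 20.8 in M and 199 in U. The states did not overlap: the lowest cyclic library lay above the highest pregnant one. Cyclic exceeded pregnant LE by 13.2-fold in B, 3.48-fold in C, 33.1-fold in M and 2.66-fold in U. The pregnant value of mare M rests on 4 counts. Its ratio, pregnant over cyclic, was 0.0302 with a 95% counting interval from 0.00816 to 0.0785. The means were 588 ± 66.9 CPM (SD, n = 5) and 105 ± 85.0 CPM (n = 4).

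The fitted difference of HOXB6, pregnant over cyclic LE, was -2.50 ± 0.80 (log2 ± SE) and did not pass the threshold of 0.05 (edgeR quasi-likelihood test, adjusted p = 0.162). It ranked 53rd by p among 4344 genes tested, of which 19 (0.437%) were called. Across all genes tested, 143 (3.29%) had every pregnant LE library below every cyclic one. Without mare M in either state the HOXB6 difference was -2.13 (adjusted p = 0.239), and with the mare as a block it was -2.86 (adjusted p = 0.233). Because these are bulk captures, fewer HOXB6-expressing cells and less HOXB6 RNA per cell cannot be told apart.

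Marker sums of the LE libraries were set beside the HOXB6 values, and only the epithelial sum did not overlap between the states. Stromal fibroblast markers (8 measured, 8 with counts in cyclic and 7 in pregnant LE, PDGFRA at 0) summed to between 551 and 1759 CPM in cyclic and between 969 and 5118 CPM in pregnant LE. Epithelial markers (6 of 6 with counts) summed to between 575 and 1301 CPM in cyclic and between 1525 and 3057 CPM in pregnant LE, and glandular markers (2 of 3, FOXA2 at 0) to between 1247 and 4482 CPM and between 359 and 1459 CPM. Leukocyte markers (7 of 7 with counts in cyclic and 5 of 7 in pregnant LE, LYZ and CD14 at 0) summed to between 15.8 and 355 CPM and between 2.60 and 286 CPM. Their part in the HOXB6 difference was not tested.

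In GE the HOXB6 values lay the other way. Cyclic GE had 280.0 CPM in mare B, 177 in C, 20.6 in M and 106 in U, and pregnant GE had 529.9 in B, 253 in C, 326 in M and 322 in U. Each of the 4 mares had the higher value when pregnant, by 1.89-fold in B, 1.43-fold in C, 15.8-fold in M and 3.04-fold in U, but the groups overlapped. The value of mare M rests on 3 counts in the cyclic library, and its 95% counting interval ran from 5.32 to 77.5. Means were 146 ± 110 CPM (SD, n = 4) in cyclic and 358 ± 119 CPM (n = 4) in pregnant GE. The fitted difference of 1.32 ± 0.89 did not pass the test (edgeR, adjusted p = 0.928). Stromal fibroblast markers (8 of 8) summed to between 404 and 1516 CPM in cyclic and 289 and 786 CPM in pregnant GE, and their part in these values was not tested.

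**Figure D3:**
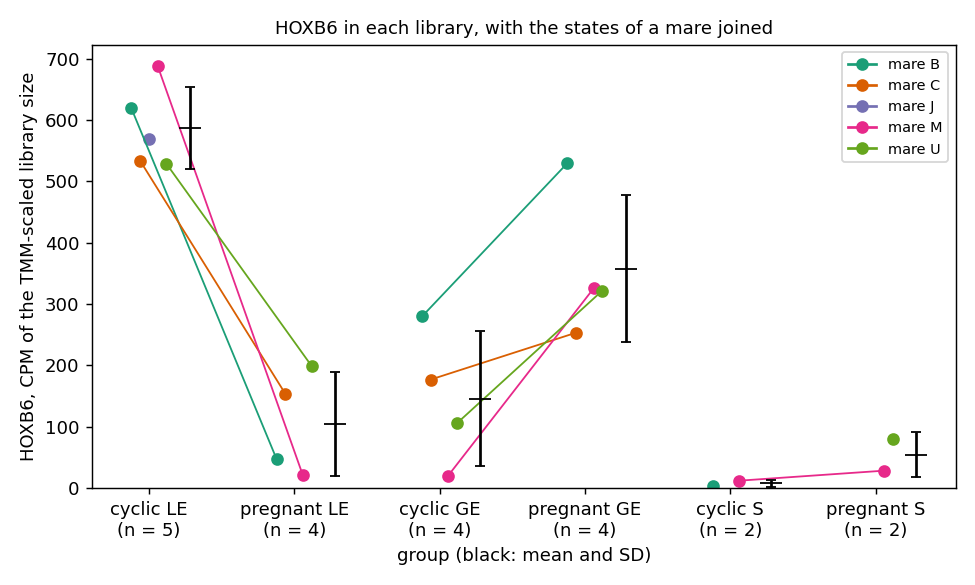
HOXB6 in CPM of the TMM-scaled library size in each of the 21 libraries, by group, with lines joining the states of a mare and black bars for the mean and SD. All 4 LE lines run down from cyclic to pregnant and all 4 GE lines run up.

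The order of the epithelia for HOXB6 turned with the state. In the 4 cyclic biopsies that gave both, LE was above GE, and in the 4 pregnant ones LE was below GE. The difference of the pregnancy effect, GE minus LE, was 4.53 ± 1.44 for HOXB6, beside a median of 1.28 over all genes. It ranked 10th by p of 6884 genes but was not called (edgeR with the biopsy as a block, adjusted p = 0.867). DESeq2 gave 4.19 with an adjusted p of 0.0447, the only setting and comparison in which any member was called, where it called 36 genes (0.6%). The edgeR test called 1 gene (0.0145%) in this comparison and 0 of 4 members. Of the others, HOXB3 had 6.68 ± 3.42 (adjusted p = 0.867), HOXA3 -5.36 ± 3.43 (0.888) and HOXA2 -1.01 ± 3.63 (0.980). The HOXA2 value was above 0 without mare B (0.38), C (0.31) or M (1.62). Without mare M the HOXB6 value was 3.19 and that of HOXA3 -3.12, and without C that of HOXB3 was 4.02. Over the 7 comparisons, HOXB6 had an unadjusted p under 0.05 in 4 (LE, S against LE, S against GE and this difference) and no other member had one. Among all genes, 339 of 4344, 362 of 3512, 480 of 4830 and 381 of 6884 had one in these comparisons, which share libraries.

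Stroma held little HOXB6. The cyclic S libraries of mares B and M had 3.55 and 12.2 CPM (1 and 2 counts), and the pregnant ones of M and U had 28.6 and 80.4 CPM (15 and 21 counts). HOXB6 took 3.13% and 8.70% of the HOX counts in cyclic S and 6.20% and 12.9% in pregnant S, against a median of 81.4% (57.4% to 85.2%) in cyclic LE. Its median share was 49.8% (6.67% to 84.2%) in pregnant LE, 34.5% (5.77% to 71.1%) in cyclic GE and 72.9% (57.2% to 79.0%) in pregnant GE. The S libraries also carried gland products, with P19 and SCGB1A1 at a sum of 846 to 5653 CPM and FOXA2 at 0, and their part in the stromal HOXB6 reads was not tested.

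The groups ranked by mean HOXB6 level as cyclic LE (588 CPM), pregnant GE (358), cyclic GE (146), pregnant LE (105), pregnant S (54.5 ± 36.7, n = 2) and cyclic S (7.87 ± 6.10, n = 2). Cyclic LE lay above every other group without overlap except for pregnant GE, whose library of mare B (529.9) reached just above the lowest cyclic LE library (529). Pregnant GE and cyclic GE overlapped, as did cyclic GE and pregnant LE, and both pregnant S libraries lay within the range of pregnant LE. Only cyclic S, the last in this order, lay below all libraries of every other group. That rests on 2 counts in cyclic S of mare M (12.2 CPM) against 3 counts in cyclic GE of mare M (20.6 CPM). With CPM of the total count (totals of 138441 and 222623) the order of these libraries is reversed. Both cyclic S values were under the level of 3 counts in their libraries (10.6 CPM in B and 18.3 CPM in M).

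Between compartments, counts were summed per mare with the mare as a block, and no HOX gene was called. For LE against GE, HOXB6 had 414 ± 33.1 CPM in LE and 264 ± 65.2 CPM in GE (SD, n = 4 mares), a log2 difference of 0.67 ± 0.49 (edgeR, adjusted p = 0.608) beside a median of -0.25 over all genes. In the cyclic libraries alone it was 2.36 (adjusted p = 0.167) and in the pregnant ones alone -2.10 (adjusted p = 0.468). The test called 498 of 7174 genes (6.94%) and 0 of 5 members, and 13 members with counts did not pass the count filter.

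For S against LE, from the biopsies that gave both, HOXB6 had 43.1 ± 46.7 CPM in S and 487 ± 263 CPM in LE (SD, n = 3 mares). Among single biopsies, S was above LE in the pregnant one of mare M (28.6 against 20.8 CPM, from 15 and 4 counts). It was below LE in the other biopsies that gave both. In the counts summed per mare S was the lower in 3 of 3 mares, with a log2 difference of -3.94 ± 1.64 (edgeR, adjusted p = 0.293) beside a median of -0.60. The difference was -6.44 in the cyclic libraries alone and -0.46 in the pregnant ones alone (adjusted p = 0.882 and 1.00). The test called 61 genes (1.74%) and 0 of 3 members. For S against GE it had 35.6 ± 39.1 and 268 ± 29.7 CPM, again lower in 3 of 3 mares, with -3.55 ± 1.72 (edgeR, adjusted p = 0.458) beside a median of -1.07. Here 63 genes (1.3%) and 0 of 2 members were called. Without mare B the stromal differences were -2.64 and -2.45, and without U -5.37 and -4.49. The compartment comparisons share libraries, and neither stromal difference passed the threshold.

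**Figure D4:**
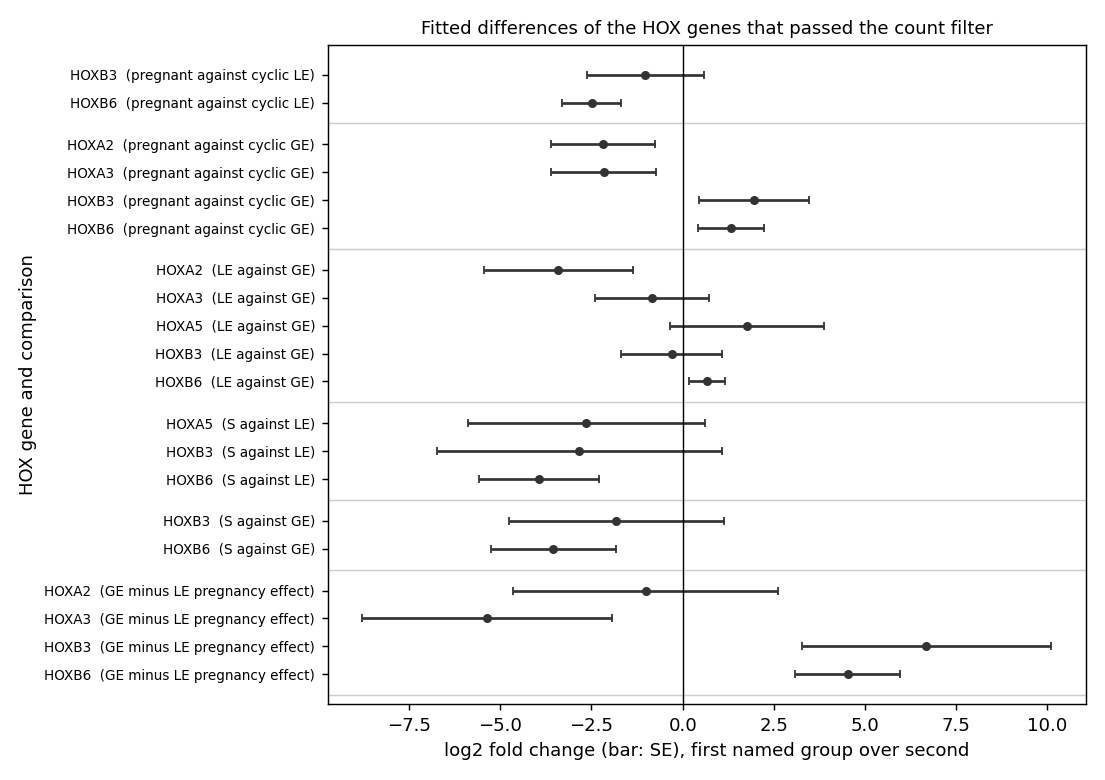
Fitted log2 differences (points) with their SE (bars) for the HOX genes that passed the count filter in each comparison. None passed an adjusted p of 0.05, and HOXB6 has the shortest bars within each comparison.

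HOXB3, the anterior neighbour that overlaps HOXB6 and HOXB5 in the RefSeq table, had the next-highest count, 608 in 15 libraries. In cyclic LE it had 63.4 CPM in mare B, 90.3 in C, 51.3 in J, 0 in M and 116 in U, and in pregnant LE 2.60 in B, 0 in C, 5.20 in M and 118 in U. In cyclic GE it had 51.0 in B, 19.1 in U and 0 in C and M, and in pregnant GE 131 in B, 51.8 in C, 65.1 in M and 29.3 in U. Both epithelia overlapped between states, and the pregnant LE library of mare U was the highest of all LE libraries. The fitted values were -1.02 ± 1.60 in LE (edgeR, adjusted p = 0.973) and 1.96 ± 1.51 in GE (adjusted p = 0.988). They were -4.59 without the pregnant LE library of mare U and 3.33 without the cyclic GE library of mare B. In S it had 135 CPM in pregnant M, 7.66 in pregnant U and no count in either cyclic library. Between compartments it gave -0.30 ± 1.38 for LE against GE (adjusted p = 0.978), -2.83 ± 3.92 for S against LE (0.906) and -1.82 ± 2.95 for S against GE (0.899). The sign for LE against GE turned without mare B (0.031) or M (0.64), and that for S against LE without B (0.78) or U (0.029), while S against LE was -5.05 without M and S against GE -0.11 without B. No source used here states how reads in the overlapping HOXB3, HOXB5 and HOXB6 spans were assigned.

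HOXB2, the next anterior gene, had counts in no LE library. In cyclic GE it had 0.836 CPM in mare B, 1.58 in C, 0 in M and 4.23 in U, and in pregnant GE 4.61 in B, 16.7 in C, 28.7 in M and 0 in U. In S it was at 0 in all but the pregnant library of mare U, which had 375 CPM and held 98 of its 148 counts. It passed the count filter in no comparison. HOXB7, on the posterior side of HOXB6, had 139 counts in 10 libraries, at most 52.0 CPM (cyclic LE, mare C).

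The anterior A-cluster genes HOXA2 and HOXA3, known from hindbrain and pharyngeal patterning, had most of their reads in GE. HOXA2 in cyclic GE was 27.6 CPM in mare B, 225 in C, 0 in M and 138 in U, and in pregnant GE 2.30 in B, 36.9 in C, 1.92 in M and 46.4 in U. Among LE libraries it was above 0 in cyclic U (102 CPM) and pregnant M (5.20 CPM) only, and in S it had 3.55 in cyclic B, 0 in cyclic M, 5.71 in pregnant M and 3.83 in pregnant U. The states of GE overlapped, with a fitted value of -2.19 ± 1.43 (edgeR, adjusted p = 0.909), and LE against GE gave -3.41 ± 2.04 (adjusted p = 0.467), from 2 of 4 mares with counts in LE and 4 of 4 in GE. The first was -1.38 without the cyclic library of mare C, and the second -2.19 without mare B, -1.73 without C and -4.88 without M.

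HOXA3 in cyclic GE was 8.36 CPM in mare B, 72.7 in C, 329 in M and 16.9 in U, and in pregnant GE 4.61 in B, 51.3 in C, 32.6 in M and 0 in U. All 4 mares had the lower value when pregnant, while the groups overlapped and the fitted value of -2.16 ± 1.44 did not pass (edgeR, adjusted p = 0.913). It was -0.56 without the cyclic GE library of mare M. In cyclic LE it was 3.65 in C, 18.4 in U and 0 in the other 3 mares, and in pregnant LE 15.6 in B, 0 in C, 208 in M and 2.62 in U. The highest value of each epithelium came from a library of mare M that stood apart. LE against GE gave -0.83 ± 1.57 (adjusted p = 0.930), and 0.017 without mare C. In S it had 28.4 CPM in cyclic B, 1.90 in pregnant M and 0 in the other two. The test of pregnancy in GE called 3 of 4816 genes (0.0623%) and 0 of 4 members (HOXA2, HOXA3, HOXB3 and HOXB6).

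HOXA5, a central gene known from lung and skeletal patterning, had counts in 4 of 5 cyclic LE libraries, at 54.9 CPM in mare B, 6.39 in C, 130 in M and 20.1 in U, and 0 in J. In pregnant LE it was 7.80 in B, 2.62 in U and 0 in C and M, which was the lower state in 4 of 4 mares. The groups overlapped, and it did not pass the count filter for this test. In cyclic GE it had 2.51 CPM in B, 0 in C, 6.86 in M and 46.6 in U, and in pregnant GE 9.22 in C, 1.92 in M and 0 in B and U. Among S libraries it had counts only in pregnant M (107 CPM). LE against GE gave 1.76 ± 2.11 (edgeR, adjusted p = 0.844) and S against LE -2.64 ± 3.24 (adjusted p = 0.904). The first was 0.61 without mare B, 2.91 without C and 0.53 without M, and the second -0.73 without B.

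The posterior genes HOXA9, HOXA10 and HOXA11 gave few reads in this endometrium. HOXA11 had 79 counts in 12 libraries: in cyclic LE 6.34 CPM in mare B, 8.21 in C, 22.8 in J, 9.48 in M and 8.37 in U. It was thus present in every cyclic LE library, while pregnant LE had 67.6 CPM in M, 2.62 in U and 0 in B and C. GE had 1.67 CPM in cyclic B, 4.61 in pregnant C, 1.92 in pregnant M and 0 elsewhere. S had 74.5 CPM in cyclic B, 1.90 in pregnant M and 0 in the other two. HOXA10, the best-known uterine HOX gene, had 22 counts in 3 libraries. Of these, 19 lay in the pregnant LE library of mare B (49.4 CPM), 2 in pregnant S of mare M and 1 in cyclic LE of mare U.

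HOXA9 had 107 counts in 9 libraries, of which 62 (57.9%) lay in cyclic LE of mare U at 104 CPM. The other cyclic LE libraries had 2.11 CPM in B, 5.47 in C, 13.3 in J and 0 in M, and pregnant LE had none, which allows up to 2.18 CPM over that group. GE had 5.02 CPM in cyclic B, 20.7 in pregnant B and 0.576 in pregnant C, and S had 12.2 in cyclic M and 49.8 in pregnant U, with 0 in the rest. None of these posterior genes passed the count filter in any comparison. With no filter beyond a count, all 13 to 18 members with counts were tested in each comparison and edgeR called 0.

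**Figure D5:**
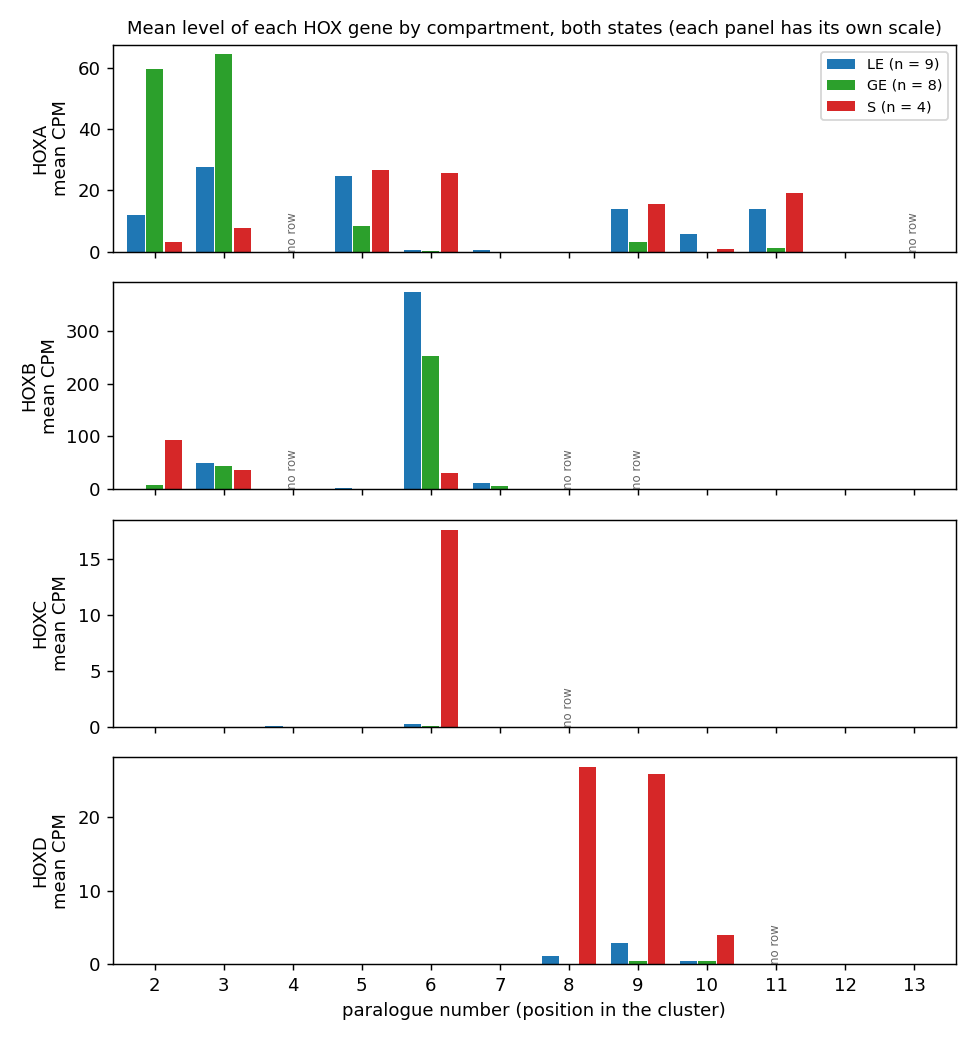
Mean CPM of each HOX gene in LE (9 libraries), GE (8) and S (4), both states together, by cluster and paralogue number (2 to 13), with a separate scale for each cluster. The tallest bars of clusters C and D are those of HOXC6, HOXD8 and HOXD9 in S, each from the counts of 1 library.

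In the pregnancy comparison of LE, 2 members were tested (HOXB3 and HOXB6), and 15 with counts were not. In S no member of 15 with counts passed the filter. There the edgeR test called 0 of 2212 genes (0%), 88 had an unadjusted p under 0.05, DESeq2 and limma called 0 as well, and over 11 other settings in all 0 to 3 genes were called.

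The clusters also hold other genes in the RefSeq table, 27 in all, of which 6 had a row: MIR196B, MIR10A, MIR196A, MIR615, MIR10B and LOC100629967. None had a count. The lncRNA LOC138916145, which overlaps HOXB3, HOXB5 and HOXB6, has no row and was not analysed here.

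Genes that work with or regulate the HOX clusters were looked at next. MEIS1, a cofactor that binds DNA together with HOX proteins, had counts in 20 libraries at a mean of 109 CPM. Of the 9 listed TALE cofactors, 2 or 3 were tested in each epithelial comparison and none was called. For pregnancy their median was -0.16 in LE, against -0.04 over all genes, and 0.45 in GE, against 0.07.

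Among 26 Polycomb and trithorax regulators, ASH1L (572 CPM, mean of 21 libraries) and KMT2A (386 CPM) were the highest, and none was called for pregnancy. Their medians were 0.46 in LE (14 tested, -0.04 over all genes) and 0.43 in GE (16 tested, 0.07 over all genes). For LE against GE, 1 of 22 tested was called, with a list median of -0.46 against -0.25 over all genes. This was PHC1, a Polycomb subunit, higher in LE by 2.71 ± 0.78 (edgeR, adjusted p = 0.0113). Its call was lost without any 1 of the 4 mares, with an adjusted p of 0.0840 without B, 0.0816 without C, 0.0690 without M and 0.0990 without U. The PHC1 call was also lost with the libraries unsummed (edgeR, 0.189) and in the cyclic (0.588) or pregnant (0.218) libraries alone.

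In the retinoic acid pathway, 5 genes were tested between LE and GE. RBP4, the secreted retinol carrier, was higher in LE by a log2 difference of 3.47 ± 0.86 (edgeR, adjusted p = 0.00205), a call lost without mare B (0.0611) or C (0.0586). The RBP4 call was also lost in the pregnant libraries alone (2.54, edgeR, adjusted p = 0.569) and held in the cyclic ones alone (7.78, 0.00744). The list median was -1.06, against -0.25 over all genes. ALDH1A1, which makes retinoic acid, had 519 ± 233 CPM (SD, n = 5) in cyclic and 62.8 ± 63.8 CPM (n = 4) in pregnant LE. The difference of -3.06 ± 0.87 did not pass (edgeR, adjusted p = 0.0723). It passed in 1 of 18 other settings, that without the pregnant library of mare U (edgeR, 0.0301). The adjusted p was 0.242 in edgeR with the mare as a block and 0.395 in limma on log2(signal + 1). No gene of this list was called for pregnancy in LE (2 tested), GE (4 tested) or S (2 tested).

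Of 23 other homeobox genes, 11 were tested between LE and GE, with a median of 0.84 against -0.25 over all genes. EMX2, a Müllerian duct factor that HOXA10 represses in other species, was higher in LE by 4.92 ± 0.71 (edgeR, adjusted p = 6.62e-10), with 272 ± 202 CPM (SD, n = 5) in cyclic LE, 550 ± 335 CPM (n = 4) in pregnant LE and at most 35.9 CPM in GE. MSX1, a uterine epithelial factor, was lower in LE by -2.65 ± 0.54 (adjusted p = 6.33e-05), with 511 ± 251 CPM (n = 4) in cyclic GE and 117 ± 72.5 CPM (n = 5) in cyclic LE. The MSX1 call was lost with the libraries unsummed and the biopsy as a block (adjusted p = 0.0728) and in the cyclic (0.139) or pregnant (0.224) libraries alone. Between S and GE, ZEB2, a repressor of epithelial genes, was higher in S by 6.44 ± 1.84 (adjusted p = 0.0387), 1 of 7 tested, and not without mare B (0.916), M (0.208) or U (0.734). Of 6 genes described as HOXA10 targets in other species, 2 were tested between LE and GE, EMX2 and FKBP4, and FKBP4 had a value of -1.04 ± 0.86 (adjusted p = 0.684).

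Genes that flank the clusters were also compared, 8 of 14 of them between LE and GE, with a median of 0.35 against -0.25 over all genes. CALCOCO2, near the B cluster, had the highest mean (222 CPM) and was not called. SKAP1, an adaptor protein gene next to the B cluster, was higher in LE than in GE by 2.41 ± 0.66 (edgeR, adjusted p = 0.00613). This call was lost without mare B (0.192) or U (0.191) and with the libraries unsummed (0.317). It held in 8 of 12 other settings, over all of which the difference ran from 0.96 to 4.26. SKAP1 was also lower in S than in LE by -5.93 ± 1.75 (adjusted p = 0.0448), lost without B (0.590), M (0.155) or U (0.510). TAX1BP1, a gene near the A cluster, was higher in LE by 1.90 ± 0.58 (adjusted p = 0.0209), lost without B (0.192), C (0.0587), M (0.147) or U (0.0762). The TAX1BP1 call held in 4 of 12 other settings and was also lost in the cyclic (edgeR, 0.630) or pregnant (0.246) libraries alone. For pregnancy none of the 6 tested flanking genes in LE and 7 in GE was called.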

How the data were processed

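RNA was measured by single-end sequencing of libraries made with a single-cell kit from laser-captured tissue, per the labels' protocols. Trimmomatic 0.32.2 and HISAT2 2.0.3 are named in the submitters' processing notes. No source used here names the counting tool, genome build, annotation or rule for overlapping genes. The authors deposited raw read counts for 24942 gene IDs and 2 tables of scaled signal (10307 genes in 21 libraries and 10410 genes in 19), and the signal served only as an alternative. No libraries had identical counts. Symbols came from a RefSeq gene table by gene ID (21420 matched, 85.9%), used for names and neighbours only.

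Tests ran in R 4.3.3 with edgeR 4.0.16 (quasi-likelihood F-test, TMM scaling, filterByExpr with minimum count 10 and minimum total 15), two-sided, adjusted by Benjamini-Hochberg over all genes tested. Alternatives used DESeq2 1.42.0 and limma 3.58.1, the latter on log2(signal + 1) or log2(signal + 5), other scalings, filters and left-out libraries. The SE is the absolute log2 difference divided by the square root of F. Levels are CPM of the TMM-scaled library size over 9789 genes kept. Floors use 3 counts. Neither floors nor counting intervals cover amplification, which makes reads depend on each other. The scripts were tested on simulated data.

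Described individually were the 8 members with the highest mean CPM, HOXA10, HOXA11, HOXB6 and any called member, and, of each pathway list, the called genes and the 2 highest. Some items that this rule covers are not reported here. Members and lists were chosen with earlier results of these data known. The mare letters pair the libraries of the states. Deviations of a mare's libraries from their group means correlated by 0.0156 to 0.0535 in LE and -0.0106 to 0.0449 in GE.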

Additional observations from a re-analysis of the deposited data

Results flagged for a closer look

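In each group of 4 or 5 libraries, the library farthest from its neighbour was looked for in every described gene. It was also looked for in the HOXB6 share of the HOX counts and in the number of members detected. Of the 39 groups whose values differed, 14 held 1 library that stood apart by Dixon's criterion, all of them for genes. The 14 of 39 are no measure of an excess over chance. For normally distributed values without ties chance gives about 1 in 20 groups, and whether these CPM values are so distributed was not tested. That rate does not apply where the other libraries are all at 0, since any count then meets the criterion, as for HOXA2 and HOXA10 in both LE groups and HOXA9 and HOXA11 in cyclic GE. Values are CPM of the TMM-scaled library size.

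Mare U gave the high library of cyclic LE for HOXA2 (102), HOXA3 (18.4), HOXA9 (104) and HOXA10 (1.67), of pregnant LE for HOXB3 (118) and of cyclic GE for HOXA5 (46.6). The pregnant LE library of mare M was high for HOXA2 (5.20), HOXA3 (208) and HOXA11 (67.6). Mare B was high for HOXA10 in pregnant LE (49.4), for HOXA9 in cyclic GE (5.02) and pregnant GE (20.7), and for HOXA11 in cyclic GE (1.67). Mare J was high for HOXA11 in cyclic LE (22.8), where the other 4 libraries lay between 6.34 and 9.48.

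HOXB6 had lower values in pregnant than in cyclic LE and higher values in pregnant than in cyclic GE, in 4 of 4 mares each, and the difference of the effects was 4.53 on the log2 scale (edgeR, adjusted p = 0.867).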

How the results depend on the processing

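No HOX gene was called in any comparison under any setting, except HOXB6 for the GE minus LE difference of the pregnancy effect with DESeq2 (1 member called). HOXB6 kept its sign in LE over 18 settings (-3.02 to -2.13, adjusted p 0.116 to 0.385), in GE over 17 (0.96 to 1.82), in S against LE over 11 (-6.44 to -0.46), in S against GE over 10 (-4.49 to -2.45) and in the difference of effects over 9 (3.19 to 5.42). The order of the states of HOXB6 was the same in 4 of 4 mares in LE and in GE under 4 scalings, and in the 3 of 3 that the deposited signal of 19 libraries holds. For LE against GE, its sign turned in pregnant libraries only (-2.10). HOXB3 turned there with no replicate block (0.24), with all libraries unsummed and a biopsy block (0.42) and in cyclic libraries only (2.81), and for S against LE in pregnant libraries only (0.26). HOXA2 turned in the difference of effects with no replicate block (2.32). Leaving out 1 mare also turned signs, with ranges of -1.38 to 0.017 for HOXA3 and -1.26 to 0.64 for HOXB3 in LE against GE, -5.05 to 0.78 for HOXB3 in S against LE and -6.12 to 1.62 for HOXA2 in the difference of effects. The causes were not tested. With the mare as a replicate block, HOXB6 had -2.86 in LE and 1.64 in GE (adjusted p 0.233 and 1.00), and the pairing changed no call of a member. In S, where the states share 1 mare, no paired analysis was possible because no residual degrees of freedom were left. Cyclic libraries only gave no value for HOXB6 in S against GE. Over all genes, the number called ranged from 0 to 90 in LE (19 in the main test), 0 to 34 in GE (3), 0 to 3 in S (0), 120 to 1159 for LE against GE (498), 0 to 310 for S against LE (61), 0 to 272 for S against GE (63) and 0 to 36 for the difference of effects (1). In each comparison 9 to 15 members with counts did not pass the count filter; without it, none was called.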
